A study of Homo sapiens with 4 samples.

Results

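The genes described here encode the oxidative phosphorylation complexes, the respiratory chain complexes I to IV and the ATP synthase (complex V) of the inner mitochondrial membrane. They were chosen by name alone: symbols beginning MT-ND, MT-CO, MT-CYB or MT-ATP; symbols of the NDUFA, NDUFB, NDUFC, NDUFS and NDUFV series with a digit; SDHA to SDHD; and symbols beginning UQCR, COX4I, COX5, COX6, COX7, COX8 or ATP5. After 20 pseudogene names were dropped, 97 of the 17755 listed genes remained, of which 13 are encoded by mitochondrial DNA and 84 by the nucleus. The nuclear names comprise 36 genes of complex I, 4 of complex II, 9 of complex III, 14 of complex IV, 18 of complex V, COX7A2L, which is a factor that joins complexes rather than a subunit, and 2 noncoding RNAs, NDUFA6-DT and NDUFV2-AS1. The 82 protein-coding nuclear genes are called the nuclear members below, and the noncoding names are given apart.

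RNA-Seq was performed on A375 and SK-MEL-28, both established human melanoma cell lines, after transfection of a control siRNA (siNC) or an siRNA against the long noncoding RNA LINC00622 (siLINC00622). The cells were kept for 6 h without serum and then for 24 h in medium with 10% serum, in all 4 conditions alike. There was 1 library per condition, named here by line and treatment, and every series of 4 values follows the order A375 siNC, A375 siLINC00622, SK-MEL-28 siNC, SK-MEL-28 siLINC00622. No condition has a replicate, each line stands for itself only, and in bulk RNA a different number of mitochondria or transcripts per cell cannot be told apart from a different mix of cells.

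The respiratory chain passes electrons from NADH (complex I) and succinate (complex II) through complexes III and IV to oxygen and pumps protons, and complex V uses the proton gradient to make ATP. Complex II is built from nuclear genes alone, while each of the other complexes combines a few subunits made in the mitochondrion with many nuclear ones, core subunits among them, that are imported. Mitochondrial genes are transcribed from both strands of the circular genome as long polycistronic RNAs, which are cut into separate mRNAs, whereas each nuclear gene has its own promoter. In melanoma cells, oxidative phosphorylation is known to vary with the melanocytic differentiation state.

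Library totals lay between 31269923 and 36384819 counts, and between 99.7% and 99.8% of them fell on listed genes. LINC00622, the targeted gene, had 135, 86, 309 and 135 counts, a fitted log2 value of -1.05 ± 0.20 (SE) with siLINC00622 over both lines (adjusted p = 0.110). The 8 melanocytic markers (MITF, PMEL, MLANA, TYR, TYRP1, DCT, SOX10 and S100B) summed to 133 and 166 FPKM in the A375 libraries and to 2061 and 2210 FPKM in those of SK-MEL-28. Most of the A375 sum was SOX10, which had 118, 149, 153 and 150 FPKM in the 4 libraries. Of markers of other cell types, 2 of 6 keratinocyte genes (19.1 to 32.4 FPKM summed), 3 of 6 fibroblast genes (5.10 to 9.82 FPKM) and 1 of 6 immune genes (0.158 to 2.32 FPKM) are listed. KRT5, TP63, PDGFRA, COL3A1, PTPRC and CD3E are not among the listed genes.

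Sequences from the gene starts of nuclear members are shown because each nuclear gene carries its own control region. Among nuclear members with at least 50 counts in 2 libraries, NDUFA6 and UQCR10 lay at the high end of the difference between the lines. ATP5MG and COX7B2 lay at the low end of this difference, which is described further on. ATP5MC3 (log2 difference 1.85) and NDUFA4L2 (-3.05) lay further out, but no window was found for them by symbol. NDUFV2 (-1.01) also lay further out than ATP5MG and COX7B2 but was below that count, and its window is not shown. Each window holds 300 bases of GRCh38.p14, from 250 before to 50 after the gene's start, as given by RefSeq and written 5′ to 3′ on the gene's strand. Capitals mark words of 5 factors associated with respiratory genes, searched on both strands: GCGCATGC (NRF1), CCGGAAG (ETS factors such as GABPA), AAGATGGC (YY1), AAGGTCA (ERR alpha) and GGGCGG (SP1).
NDUFA6 (chr22:42090723-42091022, minus strand): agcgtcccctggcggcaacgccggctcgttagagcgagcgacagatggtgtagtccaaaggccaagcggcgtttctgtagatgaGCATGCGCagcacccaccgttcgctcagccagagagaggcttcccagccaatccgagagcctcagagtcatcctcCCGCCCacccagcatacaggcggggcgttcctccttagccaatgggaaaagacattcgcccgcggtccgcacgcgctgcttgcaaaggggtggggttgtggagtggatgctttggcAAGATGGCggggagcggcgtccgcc
UQCR10 (chr22:29767119-29767418, plus strand): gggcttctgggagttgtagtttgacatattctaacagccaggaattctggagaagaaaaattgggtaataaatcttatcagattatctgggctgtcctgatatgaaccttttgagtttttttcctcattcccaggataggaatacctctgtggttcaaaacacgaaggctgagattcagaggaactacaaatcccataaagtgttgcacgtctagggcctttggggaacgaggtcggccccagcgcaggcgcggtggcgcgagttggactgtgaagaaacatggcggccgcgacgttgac
ATP5MG (chr11:118401356-118401655, plus strand): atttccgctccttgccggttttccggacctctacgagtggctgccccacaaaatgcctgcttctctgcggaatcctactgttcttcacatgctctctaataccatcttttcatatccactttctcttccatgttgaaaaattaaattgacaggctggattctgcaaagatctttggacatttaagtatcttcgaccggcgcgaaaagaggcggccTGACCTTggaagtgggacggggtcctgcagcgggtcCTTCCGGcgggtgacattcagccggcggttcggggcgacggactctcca
COX7B2 (chr4:46909196-46909495, minus strand): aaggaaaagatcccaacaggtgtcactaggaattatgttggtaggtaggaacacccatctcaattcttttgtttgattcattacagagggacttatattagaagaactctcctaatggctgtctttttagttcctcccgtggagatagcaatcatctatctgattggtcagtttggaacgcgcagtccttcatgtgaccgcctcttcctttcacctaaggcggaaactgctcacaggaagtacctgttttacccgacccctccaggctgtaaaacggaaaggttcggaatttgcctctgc

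The NDUFA6 window holds an NRF1, a YY1 and an SP1 word, the ATP5MG window an ETS and an ERR alpha word, and the windows of UQCR10 and COX7B2 none of the 5 words. Windows were found by symbol for 66 of the 82 nuclear members, and for 10728 of the listed genes, with the first window per symbol used. The NRF1 word was in 19.7% of the members' windows, in 5.51% of those of listed genes and in 3.27% of all 27305 windows. For the YY1 word these shares were 16.7%, 5.38% and 3.03%, and for the ERR alpha word 13.6%, 2.46% and 3.97%. The ETS word was in 30.3%, 19.1% and 10.7%, and the SP1 word in 62.1%, 69.1% and 44.6%. The 3 bases at the end of the ETS word can also begin the YY1 word, and a run that holds both was counted for each. Among members that differed between the lines, the ETS word was in 7 of the 34 windows of those higher in SK-MEL-28 and in 6 of the 11 of those lower, which is a count of letters in few windows and was not tested.

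The mitochondrially encoded subunits took 2.97%, 3.15%, 5.53% and 5.63% of the library counts. In each library the 95% Clopper-Pearson interval, which covers counting error only, was within 0.01 of the share, for example 2.965% to 2.977% in A375 siNC. Both SK-MEL-28 libraries lay above both A375 libraries, and the treatments of a line lay close together. The nuclear members took 0.722%, 0.749%, 0.854% and 0.875% of counts in the same order. Counts of mitochondrial over nuclear members had a ratio of 4.11, 4.20, 6.47 and 6.44. The difference between the genomes was therefore wider in SK-MEL-28 than in A375 under either siRNA.

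**Figure D1:**
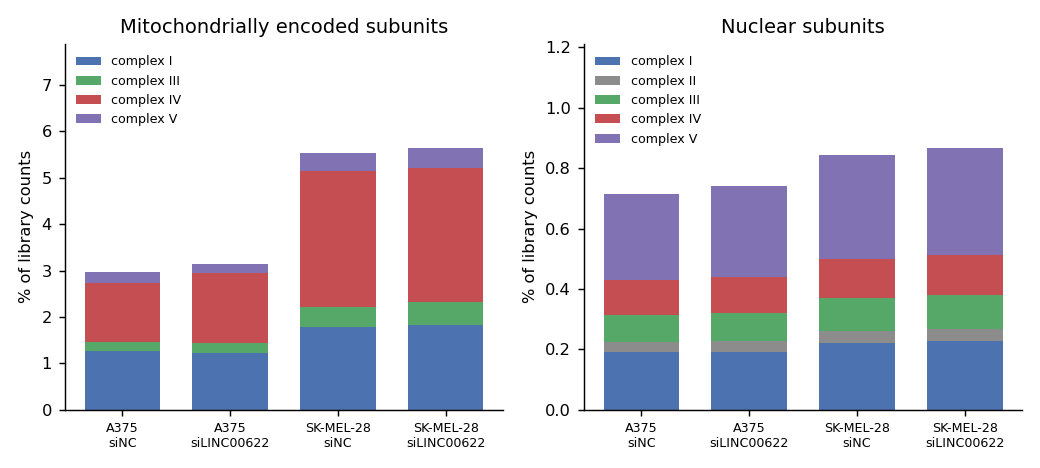
Share of all counts of a library (%, linear axes from 0, on different scales) on mitochondrially encoded (left) and nuclear (right) subunits, stacked by complex, for each of the 4 libraries. The mitochondrial share was 2.97% and 3.15% in A375, against 5.53% and 5.63% in SK-MEL-28, while the nuclear share lay between 0.722% and 0.875%.

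On deposited TPM values, which are per length, the mitochondrial members made up 12.6%, 13.0%, 21.7% and 22.3% of the sum of all genes. The nuclear members made up 1.35%, 1.38%, 1.39% and 1.41% on the same scale. The lines are thus apart in the mitochondrial share on both scales, but differ in the nuclear share on the count scale more than on the TPM scale, where the large mitochondrial part enters the denominator. Within the mitochondrial share, complex IV took 1.28% and 1.51% of counts in A375, against 2.92% and 2.89% in SK-MEL-28. Complex I took 1.27%, 1.22%, 1.78% and 1.83%, so complexes I and IV had about equal counts in A375 siNC and complex IV the higher counts in the other libraries.

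Across both treatments, SK-MEL-28 was compared with A375 in a fit with line and treatment as terms, which rests on 1 residual degree of freedom and on the spread shared over 16310 genes. The siNC and siLINC00622 libraries stand in as the pair of samples of a line, although they are not replicates of 1 condition. Of the 13 mitochondrially encoded genes, 12 were higher in SK-MEL-28 and none lower, with a median log2 difference of 0.88. Of all genes tested, 34.0% were higher in SK-MEL-28 and 34.8% were lower by the same call, with a median log2 difference of -0.03. Since most genes differed between the lines, a call by itself is common, and the direction and size of the members' values are what is described. All 8 melanocytic markers were also higher in SK-MEL-28, and what part their state has in the subunits' levels was not tested.

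The widest gap of a single mitochondrial gene was in the complex IV core. MT-CO2, the subunit that receives electrons from cytochrome c, had 2695, 3572, 9527 and 10125 FPKM, a log2 difference of 1.84 ± 0.10 (SE) between the lines (adjusted p = 8.82e-06). MT-CO1, which holds the oxygen-reducing centre, had 4571, 5592, 10087 and 9480 FPKM (log2 difference 1.12 ± 0.10). MT-CO3, the third core subunit, had 4958, 5165, 9096 and 9443 FPKM (log2 difference 1.05). In all of these the lowest SK-MEL-28 value was above the highest A375 value. MT-CYB, the cytochrome b of complex III, had 1617, 1862, 3828 and 4264 FPKM, a log2 difference of 1.39 ± 0.07 (adjusted p = 7.31e-06). In complex V, MT-ATP6, part of the proton channel, had 3250, 2911, 5473 and 5753 FPKM (log2 difference 1.04), and the small subunit MT-ATP8 had 847, 547, 1068 and 1336 FPKM (log2 difference 0.98 ± 0.20, adjusted p = 0.0049).

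The complex I genes of the mitochondrial genome were less far apart, with a median log2 difference of 0.57 over 7 genes. MT-ND4, which forms part of the proton-pumping arm, had 3627, 3786, 5932 and 6133 FPKM (log2 difference 0.88 ± 0.06). MT-ND5 and MT-ND4L, which belong to the same arm, had log2 differences of 0.82 and 0.79 respectively. MT-ND2 had 1981, 1676, 1870 and 1923 FPKM, so that on this scale, which rests on library totals, A375 siNC lay above both SK-MEL-28 libraries. Scaled by TMM, the siNC library of SK-MEL-28 lay above that of A375 by 0.10, and the fitted log2 difference of 0.23 ± 0.09 did not pass (adjusted p = 0.051). MT-ND3 (log2 difference 0.44), MT-ND1 (0.54) and MT-ND6 (0.57) lay between these. MT-ND6 is encoded on the other strand from the remaining 12 genes and its mRNA lacks a poly(A) tail. Since it is not stated whether counting used strand, its reads and reads antisense to it cannot be told apart.

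**Figure D2:**
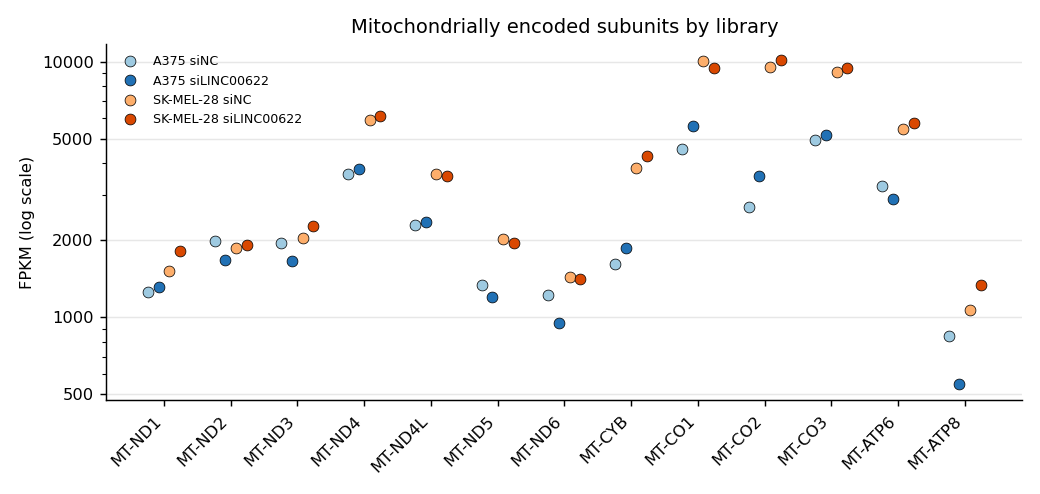
FPKM (log axis) of the 13 mitochondrially encoded genes, with 1 point per library coloured by line and treatment. MT-CO2 lies between 2695 and 3572 in A375 and between 9527 and 10125 in SK-MEL-28, while the 4 points of MT-ND2 lie between 1676 and 1981.

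The proportions among mitochondrial genes therefore differed between the lines as well as their sum. The FPKM ratio of MT-CO2 over MT-CO1 was 0.589 and 0.639 in A375, against 0.944 and 1.07 in SK-MEL-28. MT-CO2 over MT-ND2 gave 1.36 and 2.13 in A375, against 5.10 and 5.27 in SK-MEL-28. By contrast, MT-ND4L and MT-ND4, which lie on a single mRNA, kept ratios of 0.636, 0.625, 0.612 and 0.581. MT-ATP8 and MT-ATP6 also lie on a single mRNA, and their ratio was 0.261, 0.188, 0.195 and 0.232. FPKM of mitochondrial genes rests on the gene's full length, 207 bases for MT-ATP8, of which 22.2% lie within MT-ATP6, and reads on such shared bases may not be assigned to either gene.

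The table also lists 12 nuclear copies of mitochondrial genes, of which 5 had at least 50 counts in a library. Their counts summed to 2.11%, 2.03%, 1.77% and 1.84% of the counts on the mitochondrial members. Most were on MTATP6P1, with 15716, 18386, 28549 and 31468 counts and a log2 difference between the lines of 0.99, near that of MT-ATP6. MTCO1P12, in contrast to MT-CO1, was lower in SK-MEL-28, with 1192, 1700, 773 and 769 counts (log2 difference -0.71). MTND2P28 had a log2 difference of 0.23 (adjusted p = 0.056) beside 0.23 for MT-ND2. Copies and parents share sequence, so how reads were divided between them is uncertain. The mitochondrial rRNAs, which are not subunits, had log2 differences of 1.74 (MT-RNR2) and 1.21 (MT-RNR1).

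Nuclear members differed less and in both directions. Of 81 tested, 43 were higher in SK-MEL-28, 13 were lower and 25 did not pass, with a median log2 difference of 0.29. This split depends on the scaling: on library totals, which shift the median of all genes by -0.17 on the log2 scale against TMM, 27 were higher and 20 lower (57.4% of calls higher in place of 76.8%), and the nuclear median was 0.12. With limma on log2(FPKM + 1) the nuclear split was 32 and 20, or 61.5% higher. Over all genes, the share of calls that were higher was 49.5% with TMM and 40.6% under either of these scalings. For the mitochondrial genes, the calls were higher in SK-MEL-28 under every scaling tried, 11 of 13 on library totals. By treatment, the nuclear median was 0.26 in the siNC and 0.35 in the siLINC00622 libraries, and the mitochondrial median was 0.83 and 0.88.

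**Figure D3:**
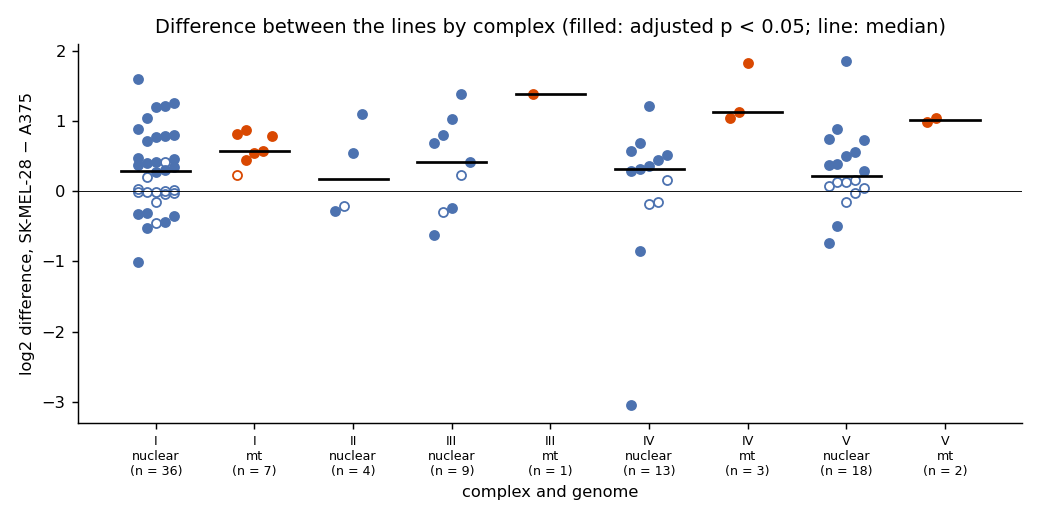
Fitted log2 difference between SK-MEL-28 and A375 of each member, by complex and by genome (blue nuclear, orange mitochondrial), with filled points for adjusted p below 0.05 and a black line at the median. The mitochondrial medians of 0.57 (complex I), 1.39 (III), 1.12 (IV) and 1.01 (V) lie above the nuclear medians of 0.29, 0.42, 0.31 and 0.22, and complex II has nuclear genes alone.

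In complex I, 18 nuclear genes were higher, 6 were lower and 12 did not pass. Among the nuclear core subunits, NDUFS1 had 4136, 5133, 9409 and 9401 counts, a log2 difference of 1.21 ± 0.09. NDUFV1, which binds NADH, differed by 0.38 and NDUFS8 by 0.40, while NDUFS3 was lower in SK-MEL-28 (-0.44). The accessory subunit NDUFA6 had 1035, 1102, 2711 and 3003 counts, the largest difference of the complex at 1.59 ± 0.10 (adjusted p = 2.33e-05). NDUFA10 (1.26) and NDUFB3 (1.21) followed, and NDUFS6 was lower (-0.53). Core subunits of the same enzyme thus lay on both sides of zero.

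The 4 subunits of complex II also went apart. SDHB, the iron-sulphur subunit, had 4149, 4585, 8138 and 8431 counts, a log2 difference of 1.10 ± 0.08. Of the membrane anchors, SDHD was lower in SK-MEL-28 (-0.29, adjusted p = 0.032) and SDHC, with 4448, 6214, 3939 and 4130 counts, did not pass (-0.21). SDHA, the catalytic subunit that binds succinate, had 165, 160, 187 and 235 counts (0.55 ± 0.20, adjusted p = 0.0485). SDHA has near-identical pseudogenes, so the authors' counting could have left out its reads, and its level cannot be set beside that of its partners.

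In complex III, 5 genes were higher, 2 were lower and 2 did not pass. UQCRFS1, the Rieske iron-sulphur protein, differed by 1.03 ± 0.08 and the core protein UQCRC1 by 0.81. UQCR10, a small subunit, had 244, 222, 541 and 536 counts (log2 difference 1.39 ± 0.15). UQCR11 was lower in SK-MEL-28, with 335, 352, 195 and 200 counts (-0.62). Of 13 genes tested in complex IV, 8 were higher, 2 were lower and 3 did not pass. COX5B had 2284, 2737, 5139 and 5117 counts (1.21 ± 0.09), NDUFA4, which belongs to complex IV despite its name, differed by 0.68, and COX4I1, the main isoform of subunit 4, by -0.18 (adjusted p = 0.083).

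With TMM scaling, the complex IV genes called lower in SK-MEL-28 were isoforms of restricted expression, while on library totals and with limma the general subunits COX4I1 and COX6A1 were called lower too. NDUFA4L2, a hypoxia-responsive paralogue of NDUFA4, had 75, 76, 10 and 6 counts, a log2 difference of -3.05 ± 0.32 (adjusted p = 0.00019). COX7B2, the testis isoform of COX7B, had 117, 141, 72 and 55 counts (-0.85 ± 0.23, adjusted p = 0.014). COX7A1, the isoform of heart and skeletal muscle, had 13, 9, 3 and 2 counts and was too low to be tested. All of these counts were small beside those of the general isoforms, for instance 3491, 4352, 5403 and 5664 for NDUFA4.

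Complex V had 9 genes higher, 2 lower and 7 that did not pass. The c-ring of the rotor is encoded by 3 genes for an identical mature protein, and these differed from each other. ATP5MC3 had 5137, 5772, 16855 and 18016 counts, the largest rise of all nuclear members at 1.85 ± 0.08 (adjusted p = 4.51e-06). ATP5MC1 differed by 0.75, and ATP5MC2, with 5308, 6628, 4579 and 4838 counts, by -0.16, which did not pass. In A375 ATP5MC2 and ATP5MC3 thus had similar counts, and in SK-MEL-28 ATP5MC3 had the higher ones. The catalytic subunit ATP5F1B was at 561, 589.5, 560 and 557 counts per kb of transcript, scaled to library size (the CPM divided by the transcript length in kb), the highest mean of the nuclear members on this scale, and did not differ past the test (0.13 ± 0.07, adjusted p = 0.16). ATP5MG, a supernumerary subunit, was lower (-0.74), as was ATP5MK (-0.49), and the inhibitor ATP5IF1 did not pass (0.16).

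Treatment with siLINC00622, fitted over both lines, gave no called member. Of all genes tested, 0.233% were called, and of the 96 members tested none was by edgeR, with 1 by the Wald test of DESeq2. At an unadjusted p below 0.05 there were 4 members, or 4.17%, against 14.6% of all genes. Among these were MT-CO2, with log2 ratios of siLINC00622 over siNC of 0.42 (A375) and 0.10 (SK-MEL-28) and a fitted value of 0.27, and MT-CYB, with ratios of 0.21 and 0.17 and a fitted value of 0.20. The accessory subunit NDUFA8 had 1345, 1856, 1782 and 2095 counts and a fitted value of 0.24 ± 0.09 (adjusted p = 0.32). None of them passed after adjustment.

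Within each line the treatments are compared as values without a test, from counts scaled by TMM with a prior count of 2, and their intervals cover counting error only. The nuclear members had median log2 ratios of 0.06 (SK-MEL-28) and 0.03 (A375), with all genes at 0.00 in both lines. In SK-MEL-28 the nuclear members with at least 1000 counts in both libraries had a standard deviation of 0.08 over 62 genes, against 0.26 over 6189 genes of that depth. In A375 the corresponding values were 0.10 over 57 nuclear members and 0.22 over 6293 genes. The ratios of well-counted nuclear members were thus held within a narrower band than those of all such genes, and members are not replicates, so this is a description. A ratio above 0 was found in SK-MEL-28 for 62 of 81 nuclear members and 7642 of 15442 genes, and in A375 for 48 of 82 and 8117 of 16021. By complex, the SK-MEL-28 counts were 24 of 36 (I), 4 of 4 (II), 7 of 9 (III), 9 of 13 (IV) and 17 of 18 (V), and those of A375 18 of 36, 2 of 4, 5 of 9, 10 of 14 and 12 of 18.

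Single ratios were named where the fold was above 1.5 and either library of the line had 10 counts or more. In SK-MEL-28, 1 nuclear member was lower with siLINC00622 by this limit, NDUFA4L2 with 10 and 6 counts (interval -2.51 to 0.83), and none was higher. Of all genes, 6.49% were lower and 4.56% were higher in that line. In A375, COX7A1 with 13 and 9 counts and MT-ATP8 were lower and none was higher, beside 4.34% of all genes lower and 4.52% higher. Of the noncoding names, NDUFA6-DT had 27 and 46 counts in SK-MEL-28 (log2 ratio 0.70) and NDUFV2-AS1 had 11 and 22 in A375 (0.70, interval -0.32 to 1.98). Apart from MT-ATP8, the genes past the limit thus rest on few counts.

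The mitochondrially encoded genes had medians near those of the nuclear members, 0.07 (SK-MEL-28) and 0.05 (A375), but in A375 they were spread more widely. Their standard deviation over the 13 genes was 0.28 in A375, against 0.12 in SK-MEL-28. In A375 the highest log2 ratios were those of MT-CO2, with 57633 and 88885 counts (0.42, interval 0.40 to 0.43), and MT-CO1, with 220428 and 313734 counts (0.30). At the other end were MT-ATP8, with 5484 and 4121 counts (-0.62, interval -0.68 to -0.56), MT-ND6 (-0.36), MT-ND2 (-0.23) and MT-ND3 (-0.22). In SK-MEL-28 the same genes had ratios of 0.10 (MT-CO2), -0.08 (MT-CO1), 0.34 (MT-ATP8, interval 0.29 to 0.38), -0.01 (MT-ND6), 0.05 (MT-ND2) and 0.17 (MT-ND3). The order of the genes in A375 was thus not that in SK-MEL-28: 5 genes were above 0 in both lines, 2 below 0 in both and 6 on opposite sides. With 1 library for each treatment, how far these ratios vary between repeats of 1 condition was not measured.

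**Figure D4:**
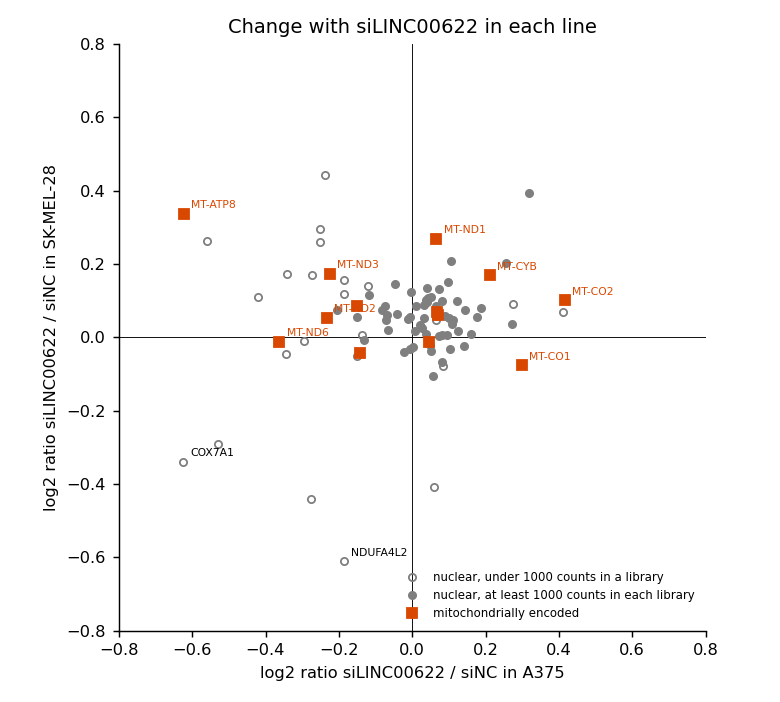
Log2 ratio of siLINC00622 over siNC in A375 (x axis) and in SK-MEL-28 (y axis) for the nuclear members (circles, open where a library is under 1000 counts) and the 13 mitochondrially encoded genes (orange squares). Most filled circles lie near 0, and the squares run from -0.62 to 0.42 along the A375 axis and from -0.08 to 0.34 along the SK-MEL-28 axis.

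Genes that act on the complexes from outside were taken from lists of assembly factors, of the machinery that copies and expresses mitochondrial DNA, and of the tricarboxylic acid cycle. For siLINC00622 none of the 45 listed assembly factors, 23 mitochondrial DNA expression genes or 16 cycle genes was called. The nearest were TWNK, the helicase of mitochondrial DNA replication, and TFAM, which packages that DNA and starts its transcription. TWNK had 3565, 2910, 1837 and 1198 counts, with log2 ratios of -0.50 (A375) and -0.65 (SK-MEL-28) and a fitted value of -0.56 ± 0.10 (adjusted p = 0.095). TFAM had 3669, 3076, 3363 and 2585 counts, with ratios of -0.46 and -0.41 and a fitted value of -0.43 ± 0.09 (adjusted p = 0.12). Both siLINC00622 values lay below the siNC value of the same line, while the summed share of mitochondrial counts was no lower with siLINC00622 in either line.

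Between the lines, 16 of the 45 assembly factors were higher in SK-MEL-28 and 11 lower, with a median log2 difference of 0.15, against 0.29 for the nuclear members. Of the 23 mitochondrial DNA expression genes, 8 were higher and 7 lower (median 0.07). Both counts stand beside 34.0% higher and 34.8% lower of all genes, and the split of the latter list is near that background. FASTKD1, an RNA-binding protein of the mitochondrion, had 437, 566, 2110 and 2821 counts (log2 difference 2.47 ± 0.11), and TFB2M, a subunit of the transcription initiation complex, had 3173, 3413, 1334 and 1096 (-1.27 ± 0.10). The polymerase POLRMT was lower (-0.71) and TFAM did not differ past the test (-0.01 ± 0.09). Of the 16 tricarboxylic acid cycle genes, 9 were higher and 3 lower, among the latter MDH2, the mitochondrial malate dehydrogenase, at -1.10. Subunits whose names fall outside the rule gave cytochrome c1, CYC1 (1.09), cytochrome c, CYCS (1.12), and the acyl carrier protein NDUFAB1 (-0.60). The other 3 symbols on that list are older names of genes already included.

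Levels of nuclear genes were compared with care, since the annotation bears on them. The length implied by count and FPKM was within 0.01 of a whole number for all 97 genes and the same in every library, and for 38 of them it was the summed exon length in GENCODE 29, including all 13 mitochondrial genes. For the nuclear members it was a median of 3.08 times the length of the gene's median coding transcript, and over 3 times in 41 of 82. For NDUFB9 it was 16591 bases beside 750, or 22.1 times. FPKM and TPM of such genes are low to that extent beside mitochondrial genes, for which the length is that of the gene. Differences between libraries do not depend on this length.

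Nuclear subunits with much of their coding sequence inside other genes had a lower median count than the rest, and the ranges overlapped. Of 78 nuclear members other than tissue isoforms, 13 have at least 50% of their coding bases inside exons of another gene of GENCODE 29, often a readthrough transcript. These had a median mean count of 294.5 over the 4 libraries, with the highest at 1804, beside 2922 for the other 65. NDUFA7, with 14, 13, 14 and 10 counts, has 100% of its coding bases shared, NDUFV2, a core iron-sulphur subunit with 37, 29, 16 and 13 counts, has 91.2%, and NDUFB8, with 87, 85, 65 and 91, has 85.1%. UQCR11 (100%), NDUFC2 (76.9%), NDUFA13 (69.4%), ATP5PO (69.0%), ATP5MG (65.7%), NDUFS7 (54.7%) and SDHD (53.0%) belong to the same group. Reads on shared bases may not be assigned to either gene, so the levels of these genes are uncertain. The same holds for their differences between the lines, those of UQCR11, ATP5MG and SDHD given above and that of NDUFV2 (log2 difference -1.01). Whether counting caused the low values was not tested, and UQCR10 and SDHA, with 0% shared, also had under 1000 counts.

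**Figure D5:**
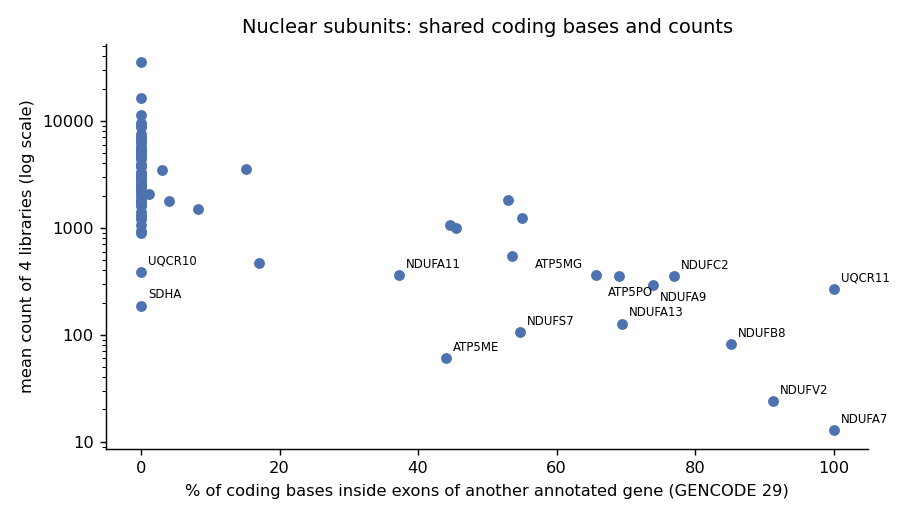
Mean count over the 4 libraries (log axis) of 78 nuclear subunits against the percentage of their coding bases that lie inside exons of another gene of GENCODE 29. Of the 13 genes at 50% or more, NDUFA7, NDUFV2 and NDUFB8 are lowest, with fewer than 100 counts at 85.1% to 100%, and the 65 others have a median of 2922.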

How the data were processed

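Poly(A)-enriched RNA of A375 and SK-MEL-28 cells was sequenced in 4 libraries, with 1 per condition, grouped by the line and treatment in their labels. The submitters' processing notes name HISAT2, TopHat2, Bowtie2 and HISAT with hg19, and the counter, annotation and strand setting are not given in the sources used here. The authors deposited raw whole-number counts for each gene. The deposited CPM values are counts scaled to each library's total, which they give back by division. The FPKM values that the authors deposited equal counts divided by a summed exon length and the library total. The TPM values that the authors deposited rescale FPKM to a constant sum.

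Counts were tested with the quasi-likelihood test of edgeR 4.0.16 in R 4.3.3 on 16310 genes with at least 10 counts in 2 libraries, with TMM scaling, line and treatment as terms and Benjamini-Hochberg adjustment over all genes. Called means an adjusted p below 0.05. Within a line, log2 ratios used TMM, a prior count of 2 and 95% Clopper-Pearson intervals, and a fold above 1.5 was named. Reads carry no molecular identifiers, so intervals cover counting error only. No test within a line was possible.

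The members, gene lists and tests were chosen with earlier results of these data known. Named genes are the mitochondrially encoded, core, catalytic, inhibitor and isoform members, SDHA to SDHD, the 3 nuclear members with the largest value in each direction of each comparison among those with at least 50 counts in 2 libraries, the 5 with the largest called change in each direction, nuclear copies of mitochondrial genes and called genes of the lists. Of these, the largest and those needed to describe a complex are printed. Low-count genes with shared exons, TWNK, TFAM, the library ratios and the limit of 50% shared coding bases were picked after their values were seen. Exon overlaps and lengths came from GENCODE 29 and promoter windows from RefSeq (GRCh38.p14), by symbol or gene ID.

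The fit was tested on simulated counts with known changes. Some listed genes are not reported here. Alternatives were library totals, DESeq2 1.42.0 size factors and its Wald test, scaling without mitochondrial genes, other filters and prior counts, and limma 3.58.1 on log2(FPKM + 1). Leaving out a library leaves no residual degree of freedom.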

Additional observations from a re-analysis of the deposited data

Results flagged for a closer look

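MT-ATP8 was flagged because its log2 ratio of siLINC00622 over siNC was 0.34 in SK-MEL-28, against -0.62 in A375, so that the single pair of each line moved in opposite directions. The counts were 7320 and 9449 in SK-MEL-28, with 5484 and 4121 in A375, and both counting intervals lie apart from 0. The difference between the lines was not tested, since each condition has 1 library. MT-ATP6, on the same mRNA, had ratios of 0.09 and -0.15.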

How the results depend on the processing

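For siLINC00622, 0 members were called with TMM and edgeR and under 6 of the alternatives, and the Wald test of DESeq2 called 1. Over all genes this contrast called 38 genes, 1 on library totals, 53 with DESeq2 size factors, 55 without mitochondrial genes, 314 by the Wald test, 121 without a filter, 1 with at least 100 counts and 1 with limma. Between the lines, the nuclear members called higher were 43, and 27 on library totals. Those called lower were 13, with 20 on library totals, 20 with limma on log2(FPKM + 1) and 6 by the Wald test. The nuclear median of 0.29 became 0.12 on library totals and 0.12 with limma. None of the results given for these alternatives reversed its direction. Mitochondrial calls stayed between 11 and 13 of 13: MT-ND2 passed with DESeq2 size factors (adjusted p = 0.042), without mitochondrial genes (0.048) and without a filter (0.043), MT-ND3 was lost on library totals (0.070) and with limma (0.068), and MT-ATP8 by the Wald test (0.086). Of the genes given above as differing between the lines, NDUFV1 and NDUFS8 were lost on library totals, NDUFV1 also with limma, and NDUFV2, UQCR11, COX7B2 and SDHD by the Wald test. Called lower on library totals and with limma, but not with TMM, were SDHC (-0.38 and -0.37), ATP5MC2 (-0.33 and -0.32), COX4I1 (-0.36 and -0.35) and COX6A1 (-0.33 and -0.31). SDHA was lost on library totals, by the Wald test, with at least 100 counts and with limma. With a prior count of 0.5, no filter, or the siNC or siLINC00622 libraries alone, the medians held. The cause of these changes was not tested, apart from the shift of the median of all genes by -0.17 on library totals. The term for line in the fit pairs the treatments within each line. Depth limits the members under 100 counts, whose within-line intervals are wide.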
